A study of Mus musculus with 6 samples.

Results

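The 9 genes described here encode complement components and regulators: C3, C4b, Cfb, C1ra, C1s1, Serping1, C2, Cd55 and Cfd. They were picked by symbol among the 45706 genes of the table, to cover C3, C4, factor B, the C1 proteases and regulators and to leave out the C1q chains, and they were picked with the DKK1 and control values of these same 6 libraries known. Their differences between the groups are therefore given as a description, without p-values, and nothing is concluded from them. RNA was sequenced from primary fibroblasts of wild-type mice, grown out of collagenase-digested lung for a week and then purified by a step the labels do not describe. The study asked which genes respond to DKK1, an extracellular antagonist of Wnt signalling that acts on the co-receptor LRP6. Control cultures (n = 3) had no recombinant protein named in their treatment label, and the DKK1 cultures (n = 3) were kept for 24 hours with recombinant mouse DKK1 (30 ng/ml). Both groups carry the same cell type and tissue labels. Age and sex of the mice are not in the labels, nor is whether the replicates came from separate animals, so the spread between libraries may be partly technical.

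Complement is a cascade of plasma and tissue proteins that tags targets for uptake, recruits leukocytes and can form a membrane pore. The classical route starts when C1q activates the proteases C1r and C1s, which cut C4 and C2 to form a C3-cleaving enzyme; the alternative route builds a second C3-cleaving enzyme from C3b and factor B, which factor D cuts. C1 inhibitor blocks C1r and C1s, and CD55 on the cell surface dismantles both C3-cleaving enzymes. The liver makes most of the circulating components, and stromal cells such as fibroblasts make many of them locally, while C1q is mainly a macrophage product.

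Library totals ran from 22565917 to 34727102 expected counts, and levels below are in CPM, counts per 1000000 of a library's total. A count of 3, taken as the limit of detection, was worth between 0.0864 and 0.133 CPM, a limit for counting error only. The fibroblast markers (Col1a1, Col1a2, Col3a1, Pdgfra, Dcn, Lum, Thy1) summed to between 10225 and 11726 CPM in control and between 9633 and 11149 CPM in DKK1 libraries. Markers of other cells were also found. Summed over their lists, 10 macrophage and leukocyte genes reached 426 to 858 CPM in control and 446 to 865 CPM in DKK1 libraries, 9 epithelial genes 57.5 to 151 and 51.9 to 150 CPM, 6 endothelial genes 22.8 to 62.9 and 20.5 to 62.8 CPM, and 5 mesothelial genes 12.1 to 34.6 and 12.3 to 37.9 CPM. Replicate 3 was the highest library of its group in each of these 4 lists. A list of 6 smooth muscle and pericyte genes was larger, and its sum separated the groups, at 1001 to 1031 CPM in control and 854 to 890 CPM in DKK1 libraries; all 6 had log2 fold changes below 0, Myh11 fell in both fits (336 ± 1.99 to 274 ± 2.27 CPM, SD, n = 3 each; adjusted p = 0.00387 in edgeR), and Cnn1, Des and Cspg4 were called lower with the replicate number as a block. Of the 7 fibroblast markers 0 were called without that block, and with it 2 were higher (Pdgfra, Dcn) and 3 lower (Col1a1, Col1a2, Thy1). The part of these changes in the results below was not tested. The fibroblast, leukocyte and smooth muscle sums were carried by the most abundant genes of each list. Col1a1 alone averaged 5940 CPM in control and 5547 CPM in DKK1 libraries, Lyz2 479 and 501 CPM, and Cnn1 563 and 503 CPM. A sum can therefore hide differences in the less abundant genes of its list. In bulk RNA, fewer cells of a type and less RNA per cell cannot be told apart.

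With DKK1, 5 of the 9 genes stood higher without overlap between the groups: C3, Cfb, C1s1, Cd55 and C1ra, in descending order of log2 fold change. Serping1 and C4b had small positive fold changes with overlapping groups, C2 had a fold change near 0, and Cfd was hardly detected. Among all 14635 tested genes, 9.4% had every DKK1 library above every control library and 7.14% had every one below. The count filter was passed by 8 of the 9 genes, Cfd being the exception, and each of the 8 had at least 30 counts in every library. The quasi-likelihood test of edgeR, adjusted over all tested genes and read at 0.05, called 4 of these 8 higher, C3, Cfb, C1s1 and Cd55, and none lower, where it called 0.697% of all tested genes higher and 0.895% in either direction. When the model also held the replicate number as a block, 6 of the 8 were called higher, C1ra and Serping1 being added, where 4.96% of all tested genes were called higher and 9.42% in either direction. These counts describe genes chosen from this contrast. The log2 fold change was above 0 in 7 of the 8, as in 49.6% of all tested genes. The median log2 fold change of the 8 genes was 0.65, and that of all tested genes was -0.00091.

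**Figure D1:**
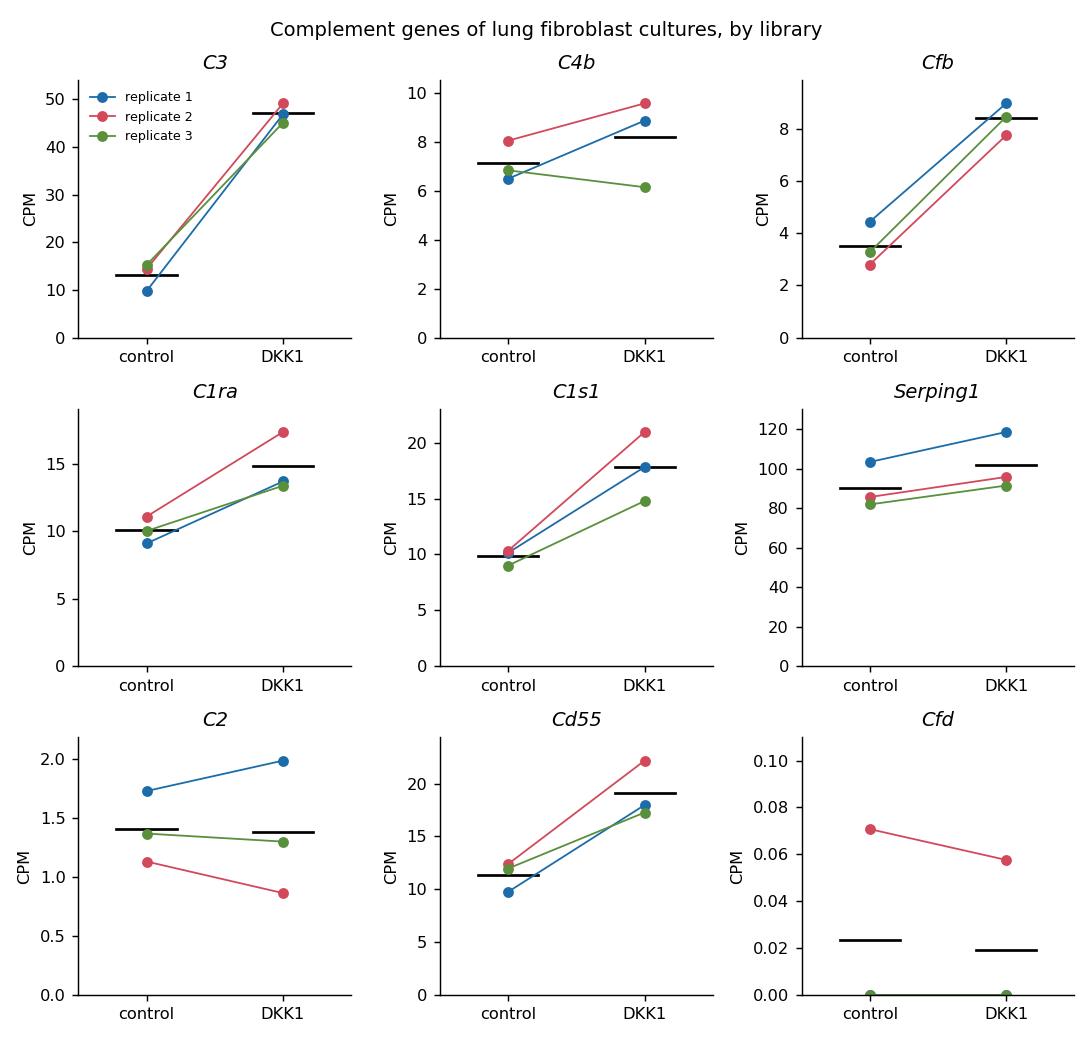
Level of each of the 9 genes in CPM (vertical axis from 0) in the control and DKK1 libraries; points of the same replicate number are joined and black bars are group means (n = 3). C3, Cfb, C1ra, C1s1 and Cd55 show no overlap between the groups, whereas C4b, Serping1 and C2 overlap; in the Cfd panel replicates 1 and 3 lie on each other at 0.

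C3 (ENSMUSG00000024164, GRCm38 chr17:57203970-57228136, minus strand, with 4 annotated transcripts) encodes the protein on which all complement routes converge. It measured 9.75, 14.4 and 15.2 CPM in control libraries 1 to 3 and 46.9, 49.2 and 45.1 CPM in DKK1 libraries 1 to 3. Every DKK1 library was high and close to the others, and the lowest of them was 2.96 times the highest control. Group means were 13.1 ± 2.95 and 47.1 ± 2.05 CPM (SD, n = 3 each), and the libraries held 220 to 1708 counts. The log2 fold change was 1.83 with an SE of 0.13. The DKK1 to control ratio was 4.81, 3.42 and 2.96 in pairs 1, 2 and 3; the largest ratio came from the pair whose control library was the lowest. C3 was called in all 6 fits that each left out 1 library, with log2 fold changes of 1.67 to 1.94. The coefficient of variation within a group was 22.5% in control and 4.35% in DKK1 libraries.

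The bases before the annotated starts of C3, C1s1 and Cd55 are shown because these genes stood higher and the windows hold no annotated exon bases. Windows from RefSeq (GRCm38.p6) were found for 5 of the 9 genes: C3, C1ra, C1s1, Cd55 and Cfd. The C1ra window is not shown, since 216 of its 250 bases lie in GENCODE exons. The upstream bases of C4b, Cfb, Serping1 and C2 were not analysed here. Each sequence holds the 250 bases upstream of the start, 5′ to 3′ on the gene's strand, with matches to the searched letters in capitals.
C3, chr17:57228137-57228386, minus strand: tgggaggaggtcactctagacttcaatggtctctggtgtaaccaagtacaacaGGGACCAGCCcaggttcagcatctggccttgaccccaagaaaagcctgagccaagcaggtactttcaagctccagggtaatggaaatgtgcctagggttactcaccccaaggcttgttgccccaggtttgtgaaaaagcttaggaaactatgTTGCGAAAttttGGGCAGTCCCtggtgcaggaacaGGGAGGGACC
C1s1, chr6:124542360-124542609, minus strand: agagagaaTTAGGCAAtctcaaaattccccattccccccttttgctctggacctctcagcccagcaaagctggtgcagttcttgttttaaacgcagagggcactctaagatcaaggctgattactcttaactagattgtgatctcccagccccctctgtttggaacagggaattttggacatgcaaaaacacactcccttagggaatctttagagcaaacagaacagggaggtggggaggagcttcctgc
Cd55, chr1:130462745-130462994, minus strand: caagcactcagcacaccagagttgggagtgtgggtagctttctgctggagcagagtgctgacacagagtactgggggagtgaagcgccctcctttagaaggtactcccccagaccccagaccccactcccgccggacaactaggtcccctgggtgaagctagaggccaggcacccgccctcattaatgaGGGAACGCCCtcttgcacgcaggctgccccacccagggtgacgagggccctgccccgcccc

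Searched on both strands were the letters of 6 motifs. The NF-kB motif and the interferon response element were patterns of 10 letters with 4 and 2 free positions. The C/EBP motif was TTGCNNAA and the STAT motif TTCNNNGAA, where N is any base. The AP-1 motif was TGANTCA. For TCF/LEF the letters were CTTTGAT. The C3 window held 3 NF-kB matches and 1 C/EBP match; the C/EBP letters lay 38 to 45 bases before the start and the nearest NF-kB letters directly at it, with another 24 to 33 bases before the start. The C1s1 window held 1 C/EBP match, 235 to 242 bases before the start, and the Cd55 window 1 NF-kB match, 52 to 61 bases before the start. A second annotated C1s1 start gave a window with 1 NF-kB match, 26 to 35 bases before that start. Of the bases of this window 38 lie in GENCODE exons, and the match lies wholly within them. The windows of C1ra, which lies mostly in exons, and of Cfd held none of the 6. None of the windows of these 5 genes held the STAT, AP-1, interferon or TCF/LEF letters. Among all 32851 windows of the same length, NF-kB letters occurred in 17.6%, C/EBP letters in 9.56%, STAT letters in 7.02%, AP-1 letters in 6.75%, TCF/LEF letters in 3.21% and interferon response letters in 2.98%. None of the 6 sets overlapped another in the printed sequences, and a match is a match of letters only.

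Cfb (ENSMUSG00000090231, chr17:34856374-34862518, minus strand, 8 transcripts) encodes factor B, the protease part of the alternative C3-cleaving enzyme. Its control libraries read 4.43, 2.79 and 3.27 CPM and its DKK1 libraries 8.97, 7.75 and 8.46 CPM. The groups were separate, with the lowest DKK1 library at 1.75 times the highest control. Means of 3.50 ± 0.842 and 8.39 ± 0.613 CPM (SD, n = 3 each) corresponded to a log2 fold change of 1.26 (SE 0.17). Nelfe lies 1 base from Cfb on the opposite strand, without annotated overlap, and held 860 to 1504 counts. Any part of Nelfe reads in the Cfb value was not tested. The Cfb pairs gave ratios of 2.02, 2.77 and 2.59. The call was kept in 4 of the 6 fits without 1 library and was lost without control replicate 2 (the lowest control) and without DKK1 replicate 1 (the highest DKK1 library); log2 fold changes lay between 1.12 and 1.47 over the 6.

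C2 (ENSMUSG00000024371, chr17:34862604-34898265, minus strand, 8 transcripts) encodes the classical-route counterpart of factor B and ends 85 bases before Cfb begins, on the same strand. C2 read 1.73, 1.13 and 1.37 CPM in control and 1.99, 0.864 and 1.30 CPM in DKK1 libraries. The groups overlapped, and 1 of the 3 pairs was higher with DKK1. The log2 fold change was -0.03 with an SE of 0.33, which at 30 to 57 counts leaves a wide interval around no difference. C2 and Cfb are neighbours and share an annotated overlapping gene, Gm20547, which had 0 counts in every library. Cfb shared none of the 2567 windows of 75 bases of the longest C2 transcript. The shorter C2 transcripts and Gm20547 were not compared, and the expected counts of C2 were not whole in 2 libraries. C2 also overlaps Zbtb12 on the opposite strand, which held 207 to 317 counts, so without stranded counting part of the C2 value is uncertain. Per length, the ratio of Cfb to C2 was 2.46, 2.37 and 2.29 in control libraries and 4.33, 8.61 and 6.24 in DKK1 libraries; with median transcript lengths its means were 1.02 and 2.74, again without overlap.

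Cfd (ENSMUSG00000061780, chr10:79890853-79892655, plus strand) encodes factor D, the protease that cuts factor B and is best known as adipsin from fat cells. It had 2 counts in replicate 2 of each group and 0 in the other 4 libraries. Every library was under the floor of 3 counts and no fold is given. The adipocyte markers Plin1, Cidec and Lep had 0 counts in every library, Adipoq had at most 2, and Fabp4 read 2.92 ± 0.369 CPM in control and 3.93 ± 0.508 CPM in DKK1 libraries (SD, n = 3 each; edgeR adjusted p = 0.394 without and 0.0829 with the block).

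C1ra (ENSMUSG00000055172, chr6:124512405-124523443, plus strand, 1 transcript) and C1s1 (ENSMUSG00000038521, chr6:124530345-124542359, minus strand, 5 transcripts) encode the C1r and C1s proteases, which bind each other and C1q. C1ra read 9.08, 11.1 and 10.0 CPM in control and 13.7, 17.3 and 13.4 CPM in DKK1 libraries, and the lowest DKK1 library was 1.21 times the highest control. Its log2 fold change was 0.55 (SE 0.12), with pair ratios of 1.51, 1.57 and 1.33; the gene was called with the block in edgeR and DESeq2, and without it in 2 other fits (DESeq2, and edgeR with no low-count filter). C1s1 read 10.1, 10.3 and 9.01 CPM in control and 17.8, 20.96 and 14.8 CPM in DKK1 libraries, again without overlap. Its log2 fold change was 0.86 (SE 0.13), with pair ratios of 1.76, 2.03 and 1.64. The C1s1 call was kept in 1 of the 6 fits without 1 library, the one without DKK1 replicate 3, and was lost without each of the other 5 libraries, with log2 fold changes of 0.72 to 0.98. Per length of the longest transcripts, the ratio of C1s1 to C1ra was 1.13, 0.944 and 0.910 in control and 1.32, 1.22 and 1.12 in DKK1 libraries, with overlap between the groups. Its size depends on the length used: with median transcript lengths the means were 4.52 in control and 5.55 in DKK1 libraries.

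Both proteases have a related gene close by on chromosome 6. Of the 75-base windows of the longest transcript, 40.1% of C1ra recur in C1rb and 14.7% of C1s1 in C1s2, with a longest common stretch of 757 and 229 bases. These genes had next to no reads of their own: C1rb reached at most 1.27 expected counts and C1s2 at most 5.07. Expected counts of C1ra were not whole in 1 library and those of C1s1 in 3. Summing C1rb into C1ra and C1s2 into C1s1 left the log2 fold changes at 0.55 for C1ra and 0.86 for C1s1.

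C4b (ENSMUSG00000073418, chr17:34728380-34743882, minus strand, 3 transcripts) encodes C4, which C1s cleaves. It read 6.49, 8.04 and 6.83 CPM in control and 8.86, 9.56 and 6.14 CPM in DKK1 libraries. DKK1 replicate 3 was the lowest of all 6 libraries, and the other DKK1 libraries were the highest. Means of 7.12 ± 0.816 and 8.19 ± 1.81 CPM (SD, n = 3 each) corresponded to a log2 fold change of 0.20 (SE 0.17), not called without or with the block. The related gene C4a, annotated in GENCODE as a processed transcript, recurs in 23.5% of the 75-base windows of C4b, and the expected counts of both genes were fractional in all 6 libraries. C4a had 18.7 to 32.9 expected counts per library and differed by 0.11 on the log2 scale (SE 0.27; adjusted p = 0.946 in edgeR, and 0.880 in the blocked fit), a sign that turned without control replicate 2. With both summed the log2 fold change of C4b was 0.20 (SE 0.15).

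Serping1 (ENSMUSG00000023224, chr2:84765387-84775444, minus strand, 3 transcripts) encodes C1 inhibitor, a serpin that inactivates C1r and C1s. It read 103, 85.6 and 81.8 CPM in control and 119, 95.8 and 91.4 CPM in DKK1 libraries. The groups overlapped, while each DKK1 library lay above its same-numbered control, by 1.15, 1.12 and 1.12 times. The log2 fold change was 0.17 with an SE of 0.11 without the block and 0.03 with it, and of the 9 alternatives that kept all libraries the edgeR fit with the block was the only one that called it; DESeq2 with the block did not. Higher in all 3 pairs were 6 of the 8 tested genes (C3, Cfb, C1ra, C1s1, Serping1 and Cd55), against 22.3% of all tested genes.

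Cd55 (ENSMUSG00000026399, chr1:130439027-130462744, minus strand, 5 transcripts) encodes decay-accelerating factor, a regulator anchored in the cell membrane. Control libraries read 9.75, 12.4 and 11.96 CPM and DKK1 libraries 18.0, 22.2 and 17.3 CPM. All DKK1 libraries were above all controls, the lowest at 1.39 times the highest control, and the log2 fold change was 0.75 (SE 0.12) with pair ratios of 1.84, 1.79 and 1.44. Like C1s1, Cd55 kept its call only without DKK1 replicate 3 and lost it without each of the other 5 libraries, with log2 fold changes of 0.62 to 0.82. The related gene Cd55b, next to it on chromosome 1, recurs in 7.55% of the 75-base windows of Cd55 and had at most 3.14 expected counts; with both summed the log2 fold change was 0.74.

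Compared per length, as TPM (counts per kilobase of the longest annotated transcript, scaled to 1000000), the genes differed widely. In control libraries Serping1 stood at 140 ± 18.3 TPM, in the 91.7th percentile of the tested genes. Cd55 at 9.92 ± 1.22, C1ra at 9.23 ± 0.920, C1s1 at 9.13 ± 0.715 and C3 at 6.99 ± 1.55 TPM followed. The libraries of Cd55, C1ra and C1s1 overlapped in this order, while every control library of C1s1 lay above every one of C3. The order below Serping1 depends on the length used: with merged exons Cd55 (8.46 TPM) stood below C1ra (12.2), C1s1 (11.4) and C3 (9.22), and with median transcript lengths C3 (24.1) came second, every library above those of C1s1 (mean 17.0), and C1ra (3.77) stood below C4b (10.4). With the longest transcripts, C4b at 3.62 ± 0.423 and Cfb at 3.48 ± 0.845 TPM came next, overlapping each other, and C2 at 1.46 ± 0.314 TPM was the lowest of the 8 tested genes (SD, n = 3 each). With DKK1, C3 at 25.0 ± 1.20 TPM stood above Cd55 at 16.6 ± 2.33 and C1s1 at 16.5 ± 2.92 TPM, and Cfb at 8.31 ± 0.647 TPM stood above C4b at 4.15 ± 0.941 TPM. The order of Cfb and C4b turned with median transcript lengths, where Cfb was at 5.57 ± 0.420 and C4b at 12.01 ± 2.67 TPM in DKK1 libraries; C3 stayed above Cd55 and C1s1 there and was then also above Serping1, at 86.6 ± 3.86 against 68.5 ± 10.05 TPM.

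**Figure D2:**
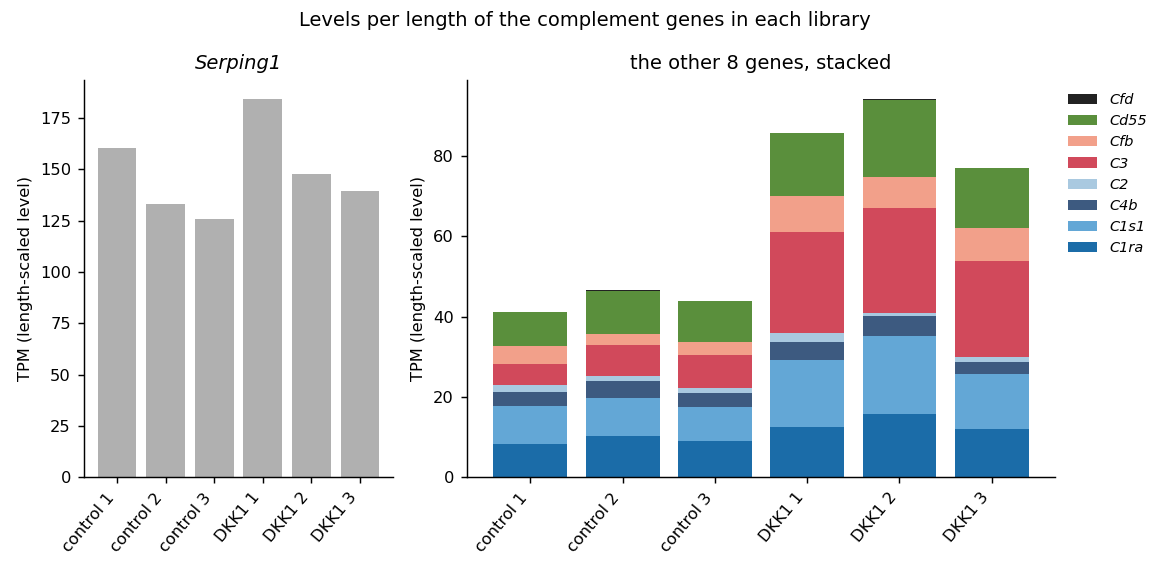
Level per length (TPM, vertical axes from 0) in each of the 6 libraries, for Serping1 alone on the left and for the other 8 genes as stacked bars on the right. The stack reaches 41.1 to 46.7 TPM in control and 76.9 to 94.2 TPM in DKK1 libraries, and the C3 segment is the part that differs most between the groups.

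Without Serping1, the summed level of the 8 other genes was 41.1, 46.7 and 44.0 TPM in control and 85.7, 94.2 and 76.9 TPM in DKK1 libraries. C3 made up 12.7%, 16.5% and 18.3% of this sum in control and 29.3%, 27.7% and 30.8% in DKK1 libraries. The share of C4b was 8.05%, 8.80% and 7.85% in control and 5.28%, 5.14% and 4.005% in DKK1 libraries. Serping1 transcripts outnumbered those of its target C1s1 by 17.0, 13.8 and 15.1 times in control and by 11.1, 7.61 and 10.3 times in DKK1 libraries; with median transcript lengths the means were 3.58 and 2.26 times. C3 transcripts were 1.57, 1.88 and 2.34 times those of C4b in control and 5.54, 5.39 and 7.69 times in DKK1 libraries. With median transcript lengths the share of C3 in the sum averaged 34.1% in control and 54.2% in DKK1 libraries, and that of C4b 14.9% and 7.44%.

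The genes also varied between replicates within each group. They were picked with the values of these libraries known, so their replicate order is given as a description only. In 7 of the 8 tested genes, C3 being the exception, the same replicate number gave the highest CPM in both groups, compared with 50.3% of all tested genes. C4b, C1ra, C1s1 and Cd55 were highest in replicate 2 of each group, and Cfb, Serping1 and C2 in replicate 1. Some of these orders rest on small gaps in control. C1s1 read 10.3 CPM in control replicate 2 beside 10.1 CPM in replicate 1, and Cd55 12.4 CPM beside 11.96 CPM in replicate 3. C2 had 39.05, 32.0 and 31.02 expected counts in control replicates 1 to 3. Replicate 3, which had the highest summed leukocyte and epithelial markers, was the highest library of a group for none of the 8 except C3 in control. C3 in control replicate 3 read 15.2 CPM beside 14.4 CPM in replicate 2, and among the DKK1 libraries replicate 3 was the lowest for C3. The part of the other cell types in the level of these genes was not tested.

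The other complement genes were taken from a list of 45 that left out the 9. Of these, 18 passed the count filter, 27 did not, and 6 (Mbl1, Mbl2, Fcnb, C6, C8a and C8b) had 0 counts in every library, which allows up to 0.0864 CPM in the deepest one. None of the 18 was called without the block (edgeR quasi-likelihood test, lowest adjusted p = 0.136, for Itgam). In that fit 5 of the 18 had an unadjusted p under 0.05, as had 1544 of all 14635 tested genes. DESeq2 without the block also called 0 of the list. The fit without a low-count filter, also unblocked, called 3: C1qb, C1qc and Itgam (adjusted p = 0.0400, 0.0359 and 0.00183 in edgeR). With the block 6 were called, 2 higher (Itgam, Itgb2) and 4 lower (C1qa, C1qb, C1qc, C3ar1), against a background of 4.96% of tested genes called higher and 4.46% lower. The median log2 fold change of the 18 was -0.017, and -0.014 with the block.

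**Figure D3:**
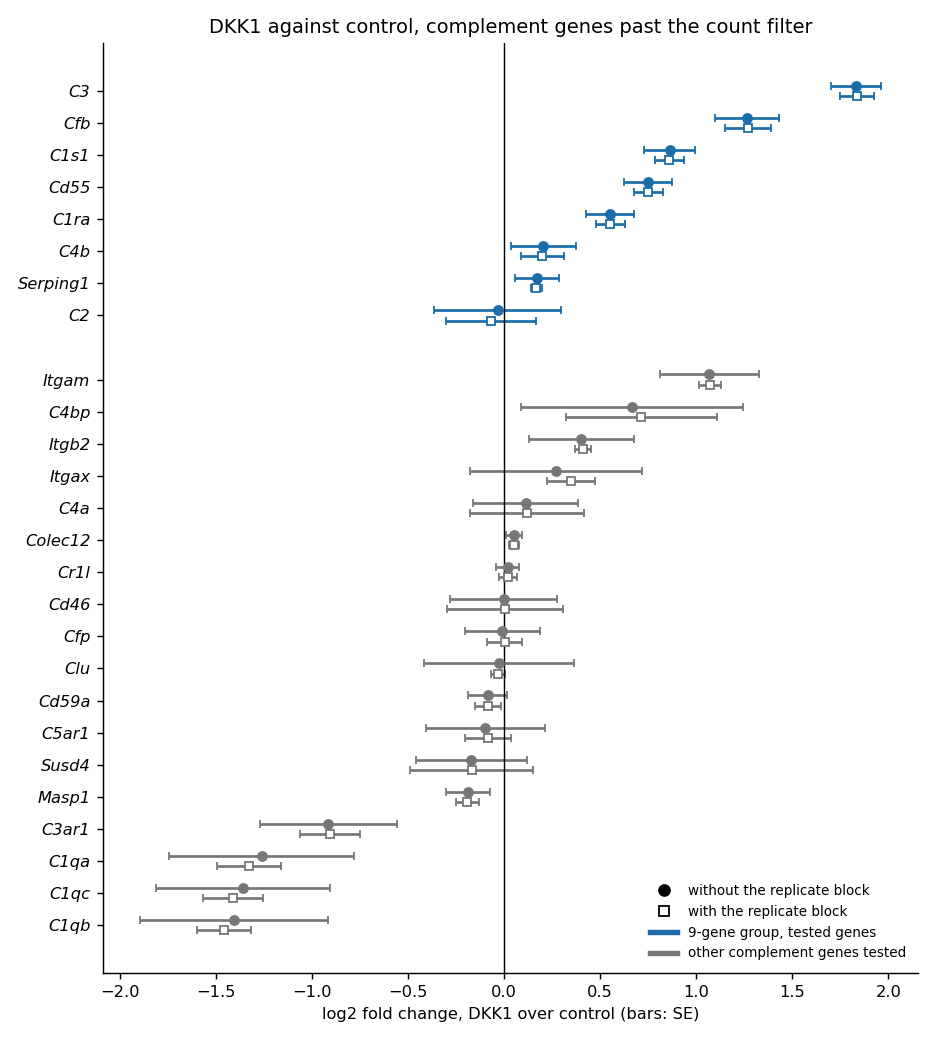
Log2 fold change of DKK1 over control with its standard error (horizontal axis) for the 8 tested genes of the described group (blue) and the 18 other complement genes tested (grey), without (circles) and with (squares) the replicate block. C3 and Cfb stand farthest to the right at 1.83 and 1.26, and the C1q chains farthest to the left at -1.40 to -1.26 without the block.

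The C1q chains C1qa, C1qb and C1qc, whose protein activates C1r and C1s, fell in the blocked fit, whereas C1ra and C1s1 were called higher there. C1qb read 10.6, 8.88 and 19.5 CPM in control and 3.21, 2.42 and 9.63 CPM in DKK1 libraries, lower in each pair, and replicate 3 was high in both groups. With the block the log2 fold change of C1qb was -1.46 with an SE of 0.14 (edgeR, adjusted p = 1.61e-05), and without it -1.40 with an SE of 0.49 (adjusted p = 0.322). With the block C1qa fell by 1.33 on that scale (SE 0.17) and C1qc by 1.41 (SE 0.16); their edgeR adjusted p-values were 0.000141 and 5.07e-05 in this fit and 0.379 and 0.301 without the block. Summed over the 3 chains, the level was 24.9, 21.5 and 44.2 CPM in control and 7.96, 5.85 and 22.99 CPM in DKK1 libraries. Among the 6 unblocked fits that each left out 1 library, the one without DKK1 replicate 3 called all 3 chains lower and the other 5 called none of them. The log2 fold change of C1qb was -2.21 without DKK1 replicate 3 and -1.002 without control replicate 3, the ends of its range over the 6.

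Among receptors, the genes for the 2 chains of complement receptor 3, which binds the C3 fragment iC3b, were higher in the blocked fit. Itgax, another receptor gene tested, overlapped between the groups, with pair ratios of 1.79, 1.39 and 0.992. It was not called (edgeR adjusted p = 0.902 without and 0.106 with the block). Itgam read 11.5, 12.6 and 20.6 CPM in control and 26.3, 25.0 and 43.2 CPM in DKK1 libraries, without overlap. Its log2 fold change was 1.07 in both fits; the SE was 0.06 in the blocked one, where edgeR gave an adjusted p of 7.23e-08, and 0.26 in the other, where the adjusted p was 0.136. Itgb2, the shared integrin beta chain, read 22.2, 24.8 and 41.5 CPM in control and 29.4, 33.7 and 54.9 CPM in DKK1 libraries, and was 0.41 higher on the log2 scale in the blocked fit (SE 0.04; adjusted p = 2.73e-05 in edgeR, and 0.682 in the fit without a block). C3ar1, the receptor of the anaphylatoxin C3a, fell by 0.91 on the log2 scale in the blocked fit (SE 0.16; adjusted p = 0.00179 in edgeR, and 0.387 in the fit without a block), from 3.63, 3.01 and 6.05 CPM to 1.61, 1.73 and 3.51 CPM. C5ar1, the main C5a receptor, averaged 4.90 ± 1.78 CPM without and 4.62 ± 1.60 CPM with DKK1 (SD, n = 3 each; adjusted p = 0.961 in edgeR, and 0.770 in the blocked fit); its log2 fold change of -0.10 turned positive without control replicate 3 and without DKK1 replicate 2.

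**Figure D4:**
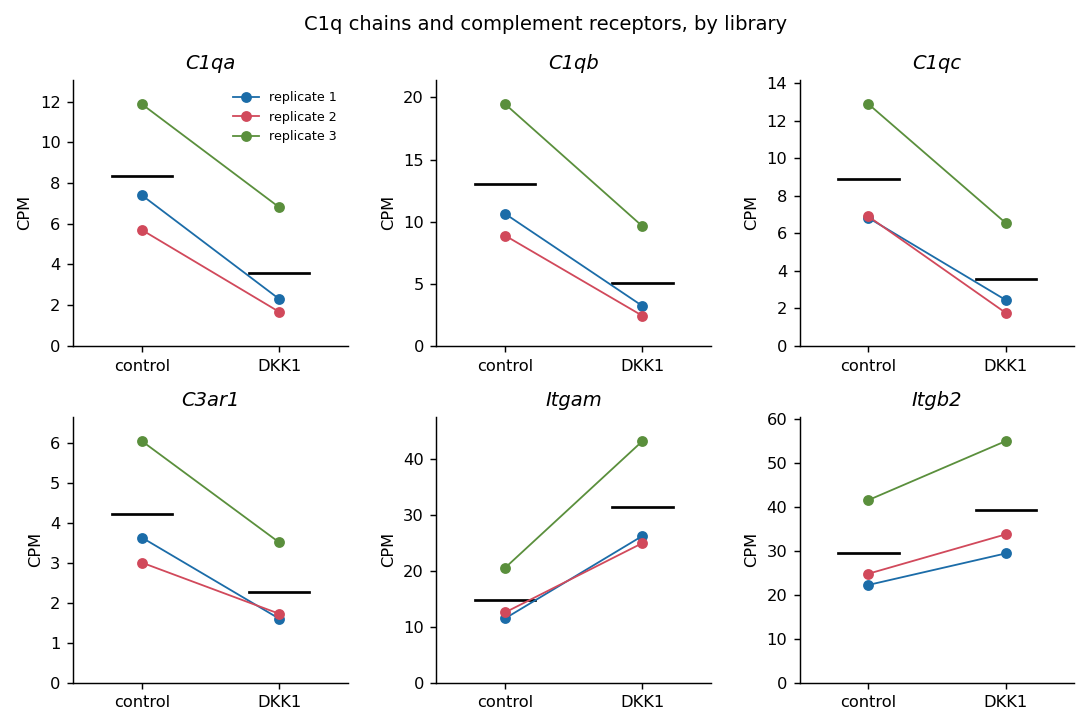
Levels of the 3 C1q chains and of the receptor genes C3ar1, Itgam and Itgb2 in CPM (vertical axes from 0), with points of the same replicate number joined and black bars for group means (n = 3). In every pair C1qa, C1qb, C1qc and C3ar1 are lower and Itgam and Itgb2 higher with DKK1, and replicate 3 is the highest library of each group.

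These 6 genes are leukocyte genes, and 3 of them, the C1q chains, belong to the macrophage and leukocyte list. Of the 10 genes on that list 0 were called without the block; with it 2 were higher (Marco, Adgre1) and 5 lower (C1qa, C1qb, C1qc, Csf1r, Mrc1). Ptprc, which encodes the pan-leukocyte antigen CD45, read 8.20, 8.88 and 13.3 CPM in control and 7.08, 7.29 and 13.5 CPM in DKK1 libraries (edgeR adjusted p = 0.917 without and 0.373 with the block). Marco read 3.86, 4.74 and 10.6 CPM in control and 16.5, 14.5 and 29.3 CPM in DKK1 libraries, and Lyz2, the most abundant of the list, 340, 402 and 696 CPM and 370, 412 and 722 CPM. No gene on the list was at 0. Without replicate 3 of both groups, C1qa, C1qb, C1qc and Itgam were called without a block. The part of leukocyte number or state in these differences was not tested.

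Of the 4 membrane regulators tested outside the group of 9, none was called in either fit (edgeR). Cr1l, the mouse membrane regulator Crry, averaged 39.8 ± 3.02 CPM without and 40.4 ± 0.486 CPM with DKK1 (SD, n = 3 each; adjusted p = 0.960 in edgeR, and 0.872 in the blocked fit); the log2 fold change of 0.02 (SE 0.06) turned negative without control replicate 2 and without control replicate 3. Cd59a, which blocks the membrane pore, averaged 14.4 ± 1.17 and 13.6 ± 1.61 CPM (adjusted p = 0.846 in edgeR, and 0.564 in the blocked fit), with a log2 fold change of -0.08 (SE 0.10). The ratio of Cd55 to Cr1l per length was 0.277, 0.399 and 0.388 in control and 0.553, 0.666 and 0.528 in DKK1 libraries; with merged exon lengths its means were 0.615 and 1.01. Cd46 had similar CPM in both groups, at 0.692 ± 0.130 and 0.679 ± 0.0931 (SD, n = 3 each), with a log2 fold change of -0.0014 whose sign changed with the settings (SE 0.28; adjusted p = 0.999 in edgeR and 0.995 in the blocked fit), and Cfi, the protease that cleaves C3b, had at most 3 counts.

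The terminal route that forms the pore was near the limit of detection: none of its 7 genes (Hc, which encodes C5, C6, C7, C8a, C8b, C8g and C9) passed the filter, and the highest count in any library was 9, for Hc. Among the 9 lectin route genes 2 were tested and neither was called: Colec12, a membrane collectin, at 169 ± 4.01 and 176 ± 8.16 CPM (SD, n = 3 each; edgeR adjusted p = 0.725, with the block 0.241), and Masp1, a protease that binds collectins, at 23.2 ± 3.57 and 20.4 ± 1.74 CPM (edgeR adjusted p = 0.646, with the block 0.0627). Properdin (Cfp), which stabilises the alternative C3-cleaving enzyme, read 8.04 ± 2.09 and 8.03 ± 1.54 CPM (edgeR adjusted p = 0.994, with the block 0.987). Clu, which encodes clusterin, an inhibitor of the pore, read 72.9, 83.7 and 169 CPM in control and 73.2, 76.6 and 173 CPM in DKK1 libraries, high in replicate 3 of both groups (edgeR adjusted p = 0.994, with the block 0.675).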

How the data were processed

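The deposited table holds RSEM expected counts per gene, 1 column for each of the 6 libraries, going by its name and header; the authors' notes list STAR, RSEM and edgeR 4.2.1 and the builds GRCm38 and mm10, per the submitters' processing notes. Strandedness and annotation release are not given in the sources used here. Gene symbols were found for 45143 of 45706 identifiers (98.8%); positions and transcript lengths came from GENCODE M21 (GRCm38), which holds 98.7% of the table's transcripts.

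Expected counts were rounded to whole numbers, and the test was edgeR 4.0.16 under R 4.3.3 (filterByExpr with a minimum count of 10, TMM, glmQLFit and glmQLFTest, two-sided, Benjamini-Hochberg over 14635 genes, called at an adjusted p under 0.05). The only term was the group. SE is the absolute log2 fold change over the square root of F. The script was tested on simulated data. The members, lists and alternatives were chosen with earlier results of these data known. Named genes were the 9 members, other listed genes called without or with the block, the paralogs of members, and a set of regulators, receptors and C1q chains; others were named after their values were seen.

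The titles number the replicates 1 to 3 in each group. Deviations of same-numbered libraries from their group means correlated across genes at 0.23 to 0.41, and those of different numbers at -0.28 to 0.08. Deviations cancel out within a group, so the low values for different numbers partly follow from the same-number ones. Because same-numbered libraries deviated together, the fit with the number as a block is given beside results whose call it changed. No 2 libraries of a group were alike within sampling noise (chi-square of 5.19 to 8.14 per degree of freedom). Alternatives were DESeq2 size factors, library totals, other count filters, DESeq2 1.42.0, limma-voom (limma 3.58.1), unrounded counts, summed related genes, other lengths and libraries left out. A planned comparison of protein sequences was not run. Part of the complement list is not reported here.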

Additional observations from a re-analysis of the deposited data

How the results depend on the processing

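The 131 genes called over all genes became 329 without a low-count filter, 289 with DESeq2, 1379 with the replicate block, 551 with the block in DESeq2, and 36 to 149 when libraries were left out; the share called higher went from 77.9% to 52.6% with the replicate block and to 60.8% with the block in DESeq2. The 4 called members became 1 to 4 when libraries were left out (2 without replicate 3 of both groups, C3 and C1s1) and 4 to 6 in the 9 other alternatives, in each of which C3, Cfb, C1s1 and Cd55 were called. Called other complement genes went from 0 to 3 without a low-count filter, 6 with the replicate block and with the block in DESeq2, and 0 to 4 when libraries were left out. The block in DESeq2 and the fit without replicate 3 were chosen after seeing the data; the causes of these changes were not tested.

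Among the named genes followed through all alternatives, the sign changed for 5, each called in no fit; Cfp, compared here without and with the block alone, went from -0.0098 to 0.0040. When libraries were left out, log2 fold changes ranged from -0.40 to 0.23 for C2, -0.024 to 0.26 for C4a, -0.15 to 0.15 for Cd46, -0.021 to 0.082 for Cr1l and -0.38 to 0.18 for C5ar1. Cd46, at -0.0014, was 0.0036 with library totals, 0.0023 without a filter, 0.0041 with the replicate block, 0.0031 with limma-voom and 0.0118 with the block in DESeq2.

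Levels per length in control depend on the transcript length used. With merged exons they were 9.22 (C3), 4.52 (C4b), 4.48 (Cfb), 12.2 (C1ra), 11.4 (C1s1) and 8.46 (Cd55) TPM. With median transcript lengths they were 24.1 (C3), 10.4 (C4b), 2.32 (Cfb), 3.77 (C1ra), 17.0 (C1s1), 60.6 (Serping1) and 2.27 (C2) TPM. Serping1 had the highest control mean under all 3 lengths. C2 had the lowest of the 8 tested genes, but with median lengths C2 and Cfb overlapped.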
